A study of Homo sapiens with 6 samples.

Results

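The genes described here encode the enzymes and structural proteins of the pigment granule: TYR, TYRP1, DCT, PMEL, MLANA, OCA2, SLC45A2, SLC24A5, GPR143 and MC1R. They were chosen by name, as genes of melanin synthesis and of the melanosome, and all 10 were found among the 58721 genes of the count table. The RNA of A375 cells, an established human melanoma line, was sequenced in 6 libraries. In 3 of them, called SOX10sg, the cells carried a guide RNA against SOX10 and their genotype is labelled as a SOX10 knockout. The other 3, called mCherrysg, carried a guide against mCherry, a fluorescent protein gene foreign to the human genome, and are labelled as wild type. All cells were grown in DMEM with 10% serum. The sources used here do not say whether the SOX10sg cells were a pool or 1 clone, or where in SOX10 the guide cuts.

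Melanin is made in the melanosome, a relative of the lysosome that melanocytes fill in stages. Tyrosinase (TYR) oxidises tyrosine in the rate-limiting step, and its relatives TYRP1 and DCT act on later intermediates of the dark pigment eumelanin. PMEL forms the fibrils on which pigment is laid down, transporters set the ions and pH inside the granule, and MC1R, the receptor of melanocyte-stimulating hormone, raises cyclic AMP and through it the transcription factor MITF. SOX10 and MITF are both known activators of genes of this group.

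The pigment genes were close to silent in this line in both groups, and those that passed the test changed in both directions. DCT fell 24.6-fold and OCA2 4.34-fold in SOX10sg libraries, while TYRP1 and GPR143 were 3.14-fold and 3.03-fold higher at very low levels. DCT reached the filter on low counts only through mCherrysg libraries, and TYRP1 and GPR143 through SOX10sg libraries. The calls of TYRP1 and GPR143 were lost in several fits with 1 library left out. PMEL, MLANA and MC1R did not pass the test, and TYR, SLC24A5 and SLC45A2 had at most 5 counts in any library. Over the same libraries MITF averaged 138 ± 2.29 CPM in SOX10sg and 57.5 ± 2.15 CPM in mCherrysg libraries (CPM is the count scaled to library size; SD, n = 3 each), and SOX10 itself 45.5 ± 3.48 CPM in SOX10sg and 234 ± 9.35 CPM in mCherrysg libraries. SOX10 shares 89 of its 3710 exonic bases with POLR2F on the opposite strand.

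Libraries held between 70075002 and 78148565 counts, so that 3 counts, taken as the floor of detection in a library, stood for 0.0383 to 0.0417 CPM. Such floors, and the intervals on counts given below, cover counting error only. Nothing in the labels says that replicates were separate cultures, so the p-values reflect the scatter of these libraries, which could be technical only. Tests are edgeR's two-sided quasi-likelihood test with Benjamini-Hochberg adjustment over 19263 genes and a threshold of 0.05. In this test 28.0% of all genes passed, 14.0% lower and 14.0% higher in SOX10sg. The identity of the line comes from the labels. Among markers of the lineage, SOX10 and MITF had the levels given above. S100B averaged 1.28 ± 0.134 CPM in SOX10sg and 32.9 ± 4.34 CPM in mCherrysg libraries. PMEL averaged 0.370 CPM in SOX10sg and 0.623 CPM in mCherrysg libraries. MLANA averaged 0.770 CPM in SOX10sg and 0.874 CPM in mCherrysg libraries, and DCT 0.0657 CPM in SOX10sg and 1.62 CPM in mCherrysg libraries. TYR, a defining marker of pigmented melanocytes, was at or under the floor in every library.

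Promoter sequences of the genes that changed, and of TYR, show what the letters around their starts hold. RefSeq (GRCh38.p14) gave windows from 250 bases before to 50 bases after the start for 8 of the 10 genes; PMEL and SLC45A2 had no entry. Windows were searched on both strands for CATGTG, the core of the M-box that MITF binds, CACGTG, the E-box, and a pair of SOX-type motifs, the shorter ACAAT and, among longer forms, ACAAAG; no match overlapped another. Sequences are given 5′ to 3′ on the strand of the gene, and capitals mark the matches, printed as their reverse complement where they lie on the other strand.
DCT, chr13:94479633-94479932, minus strand: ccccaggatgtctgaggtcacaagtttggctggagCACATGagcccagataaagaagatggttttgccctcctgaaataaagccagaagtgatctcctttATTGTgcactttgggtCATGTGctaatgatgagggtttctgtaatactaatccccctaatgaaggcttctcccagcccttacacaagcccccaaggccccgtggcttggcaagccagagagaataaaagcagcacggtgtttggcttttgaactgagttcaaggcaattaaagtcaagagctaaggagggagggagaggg
OCA2, chr15:28099266-28099565, minus strand: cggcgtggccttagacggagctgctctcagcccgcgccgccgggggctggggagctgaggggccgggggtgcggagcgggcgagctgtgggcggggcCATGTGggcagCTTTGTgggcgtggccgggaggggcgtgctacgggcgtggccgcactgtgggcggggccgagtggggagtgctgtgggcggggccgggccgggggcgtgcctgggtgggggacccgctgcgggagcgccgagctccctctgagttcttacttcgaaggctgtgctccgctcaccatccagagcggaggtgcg
TYRP1, chr9:12693135-12693434, plus strand: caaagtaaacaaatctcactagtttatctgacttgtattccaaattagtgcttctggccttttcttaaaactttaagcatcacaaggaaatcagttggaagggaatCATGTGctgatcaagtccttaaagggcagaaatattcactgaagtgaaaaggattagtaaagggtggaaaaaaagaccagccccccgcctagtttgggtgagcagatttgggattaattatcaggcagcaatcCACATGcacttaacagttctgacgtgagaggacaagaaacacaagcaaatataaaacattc
GPR143, chrX:9765798-9766097, minus strand: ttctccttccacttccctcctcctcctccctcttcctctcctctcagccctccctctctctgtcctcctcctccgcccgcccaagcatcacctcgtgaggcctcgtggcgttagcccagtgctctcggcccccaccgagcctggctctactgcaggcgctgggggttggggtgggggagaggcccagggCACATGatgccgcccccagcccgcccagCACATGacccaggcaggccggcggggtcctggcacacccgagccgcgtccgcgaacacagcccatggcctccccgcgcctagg
TYR, chr11:89177625-89177924, plus strand: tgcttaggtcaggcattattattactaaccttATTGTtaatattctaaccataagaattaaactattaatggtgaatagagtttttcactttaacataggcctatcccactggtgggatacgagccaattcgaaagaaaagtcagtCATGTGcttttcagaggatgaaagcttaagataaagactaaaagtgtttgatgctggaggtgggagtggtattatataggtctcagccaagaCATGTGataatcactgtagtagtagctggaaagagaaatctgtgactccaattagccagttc

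CATGTG was present in a window of 7 of the 8 genes with one, MLANA being the exception, and in 11.1% of all 35116 promoter windows of this length. CACGTG was in none of the pigment gene windows and in 7.26% of all windows. DCT had CATGTG at positions -215 and -134 and ACAAT at -150, counted to the leftmost base of the match from the start, while a second, distal DCT window held none of the motifs. OCA2 had CATGTG at -153 with ACAAAG at -142. TYRP1 and GPR143 had 2 matches of CATGTG each and none of ACAAT or ACAAAG. TYR, the gene without signal, had 2 of CATGTG and 1 of ACAAT. Other forms of the SOX-type motif were not searched. Among all windows the shorter SOX-type motif stood in 27.4% and the longer in 16.1%, so that a match of either is common. These are matches of letters only.

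**Figure D1:**
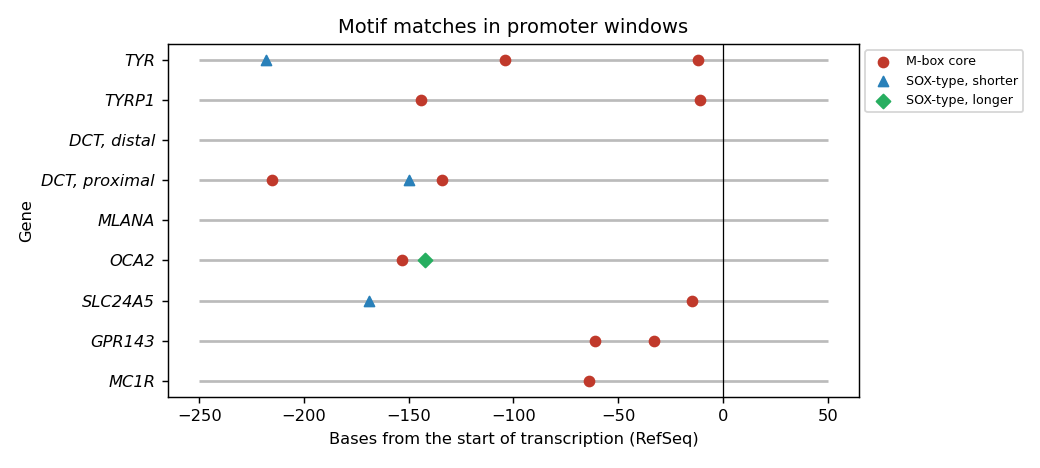
Position of motif matches (symbols, leftmost base) in the RefSeq promoter windows of 8 pigment genes, in bases from the start; the x axis spans 250 bases before to 50 after it. CATGTG (M-box core) is in 7 of 8 genes, and matches of ACAAT or ACAAAG (SOX-type) are in the DCT, OCA2, TYR and SLC24A5 windows.

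Among the tyrosinase family, DCT carried nearly all of the signal of mCherrysg libraries. DCT (dopachrome tautomerase, ENSG00000080166; GRCh38 chromosome 13, 94436808 to 94479682, minus strand), whose proximal promoter is printed above, had 5, 7 and 3 counts in SOX10sg replicates 1, 2 and 3, against 131, 112 and 110 counts in mCherrysg replicates 1, 2 and 3. All SOX10sg libraries were far below all mCherrysg libraries, and 1 of them stood at the floor. In CPM the gene averaged 0.0657 ± 0.0258 in SOX10sg and 1.62 ± 0.175 in mCherrysg libraries, and the log2 fold change was -4.59 (SE 0.28; adjusted p = 5.45e-06 in edgeR). From pooled counts the level in SOX10sg was 0.0405 times that in mCherrysg, with an exact 95% interval of 0.0225 to 0.0678. The call held in every alternative run, with log2 fold changes between -4.87 and -4.31. DCT reached the filter on low counts only through its mCherrysg libraries.

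TYRP1, which oxidises a later intermediate of eumelanin and stabilises tyrosinase (ENSG00000107165; chromosome 9, 12685439 to 12710290, plus strand), went the other way. It had 23, 14 and 15 counts in SOX10sg replicates 1, 2 and 3, against 5, 7 and 4 counts in mCherrysg replicates 1, 2 and 3. The groups did not overlap, but the highest mCherrysg library and the lowest SOX10sg library were only 7 counts apart. The mean was 0.230 ± 0.0779 CPM in SOX10sg and 0.0731 ± 0.0197 CPM in mCherrysg libraries (log2 fold change 1.62 with an SE of 0.42; adjusted p = 0.021 in edgeR). This call was lost without SOX10sg replicate 1 (adjusted p = 0.0745), without mCherrysg replicate 1 (0.0679) and without mCherrysg replicate 3 (0.062) in the same edgeR test. TYRP1 reached the filter on low counts only through its SOX10sg libraries. It shares 102 of its 3741 exonic bases with LURAP1L-AS1 on the opposite strand.

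TYR, the tyrosinase gene (ENSG00000077498; chromosome 11, 89177452 to 89295759, plus strand), had 0 counts in all SOX10sg libraries, and 1, 0 and 0 counts in mCherrysg replicates 1, 2 and 3. From pooled counts, the exact 95% interval of the level ended at 0.0161 CPM in SOX10sg and at 0.0255 CPM in mCherrysg. A level of 3 pooled counts would be 0.0131 CPM in SOX10sg and 0.0137 CPM in mCherrysg. A difference in TYR was not detectable at this depth.

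**Figure D2:**
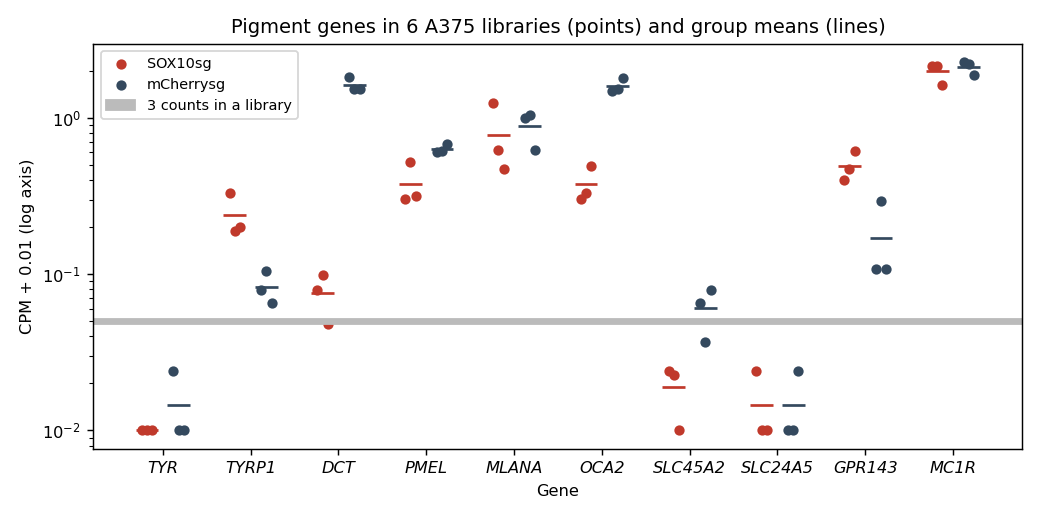
CPM plus 0.01 (log axis) of the 10 pigment genes in each library: points are libraries, short lines group means, and the grey band is the level of 3 counts. DCT and OCA2 are lower and TYRP1 and GPR143 higher in all 3 SOX10sg libraries, and TYR and SLC24A5 lie under the band in all 6.

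Of the structural proteins, PMEL, which builds the fibrils of the melanosome (ENSG00000185664; chromosome 12, 55954105 to 55973317, minus strand), had 21, 40 and 24 counts in SOX10sg replicates 1, 2 and 3, against 43, 45 and 48 counts in mCherrysg replicates 1, 2 and 3. Each SOX10sg library was below each mCherrysg library in CPM, with SOX10sg replicate 2 the closest. Its mean was 0.370 ± 0.123 CPM in SOX10sg and 0.623 ± 0.0368 CPM in mCherrysg libraries, and the difference missed the threshold (log2 fold change -0.75, 95% interval -1.37 to -0.13, edgeR adjusted p = 0.0758). Without SOX10sg replicate 2 it passed (log2 fold change -1.05, adjusted p = 0.03). PMEL shares 89 of its 3901 exonic bases with CDK2 on the opposite strand.

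MLANA, the melanoma antigen of early melanosomes also known as MART-1 (ENSG00000120215; chromosome 9, 5890802 to 5910606, plus strand), varied widely within the groups. It had 89, 48 and 36 counts in SOX10sg replicates 1, 2 and 3, against 71, 76 and 44 counts in mCherrysg replicates 1, 2 and 3. The highest and the lowest of the 6 libraries were both SOX10sg libraries. The mean was 0.770 ± 0.412 CPM in SOX10sg and 0.874 ± 0.229 CPM in mCherrysg libraries, and the 95% interval of the log2 fold change ran from -1.05 to 0.66 (edgeR adjusted p = 0.758), wide enough to hold a 2-fold decrease.

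The transporters of the melanosome membrane differed in level. OCA2, the P protein that carries chloride and raises the pH of the granule (ENSG00000104044; chromosome 15, 27754875 to 28099358, minus strand), fell. It had 21, 25 and 38 counts in SOX10sg replicates 1, 2 and 3, against 106, 112 and 128 counts in mCherrysg replicates 1, 2 and 3. All SOX10sg libraries were below all mCherrysg libraries. OCA2 averaged 0.365 ± 0.104 CPM in SOX10sg and 1.59 ± 0.164 CPM in mCherrysg libraries (log2 fold change -2.11 with an SE of 0.22; adjusted p = 1.68e-04 in edgeR), and the call held in every alternative run, between -2.37 and -1.97. The 95% intervals of OCA2 (-2.62 to -1.59) and DCT (-5.23 to -3.95) did not overlap; the difference between these genes was not tested itself.

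SLC45A2, a proton and sugar transporter that also affects melanosomal pH (ENSG00000164175; chromosome 5, 33944616 to 33984730, minus strand), had 1, 1 and 0 counts in SOX10sg replicates 1, 2 and 3, against 4, 2 and 5 counts in mCherrysg replicates 1, 2 and 3. These counts were too few for the filter, which asks for about 0.134 CPM in 3 libraries. From the pooled counts, 2 in SOX10sg and 11 in mCherrysg, the ratio was 0.173 with an exact 95% interval of 0.0187 to 0.795. SLC24A5, a potassium-dependent sodium and calcium exchanger (ENSG00000188467; chromosome 15, 48120972 to 48142672, plus strand), had 1 count in SOX10sg replicate 1 and 1 in mCherrysg replicate 3 and none in the other libraries. No comparison can be made of SLC24A5 at this depth, and 32.9% of its exonic bases are shared with MYEF2 on the opposite strand.

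The receptors were GPR143 and MC1R. GPR143, a G protein-coupled receptor inside the melanosome membrane that limits the size of the granule (ENSG00000101850; chromosome X, 9725346 to 9786297, minus strand), rose. It had 28, 36 and 47 counts in SOX10sg replicates 1, 2 and 3, against 7, 21 and 7 counts in mCherrysg replicates 1, 2 and 3. mCherrysg replicate 2 held 3 times the count of the other 2 mCherrysg libraries and was still below all SOX10sg libraries. GPR143 averaged 0.483 ± 0.107 CPM in SOX10sg and 0.159 ± 0.107 CPM in mCherrysg libraries (log2 fold change 1.59 with an SE of 0.43; adjusted p = 0.0255 in edgeR). The call was lost in the same test without SOX10sg replicate 2 (adjusted p = 0.0682), SOX10sg replicate 3 (0.0871), mCherrysg replicate 1 (0.0762) or mCherrysg replicate 3 (0.0569). Without mCherrysg replicate 2 the log2 fold change was 2.29. GPR143 was over the filter on low counts in all SOX10sg libraries but in 1 mCherrysg library.

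MC1R, the receptor at the cell surface (ENSG00000258839; chromosome 16, 89912119 to 89920977, plus strand), was the most abundant of these genes by count. It had 154, 168 and 127 counts in SOX10sg replicates 1, 2 and 3, against 162, 162 and 134 counts in mCherrysg replicates 1, 2 and 3. The groups overlapped, and replicate 3 was the lowest of each. The mean was 1.97 ± 0.302 CPM in SOX10sg and 2.10 ± 0.211 CPM in mCherrysg libraries, with a log2 fold change between -0.45 and 0.26 at 95% (edgeR adjusted p = 0.718). Of the 5566 exonic bases of MC1R, 44.5% are shared with exons of other genes. The largest share, 1192 bases, is with ENSG00000198211, a protein-coding gene on the same strand, and TCF25 on that strand shares 547. HTSeq may discard reads that fit several genes.

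**Figure D3:**
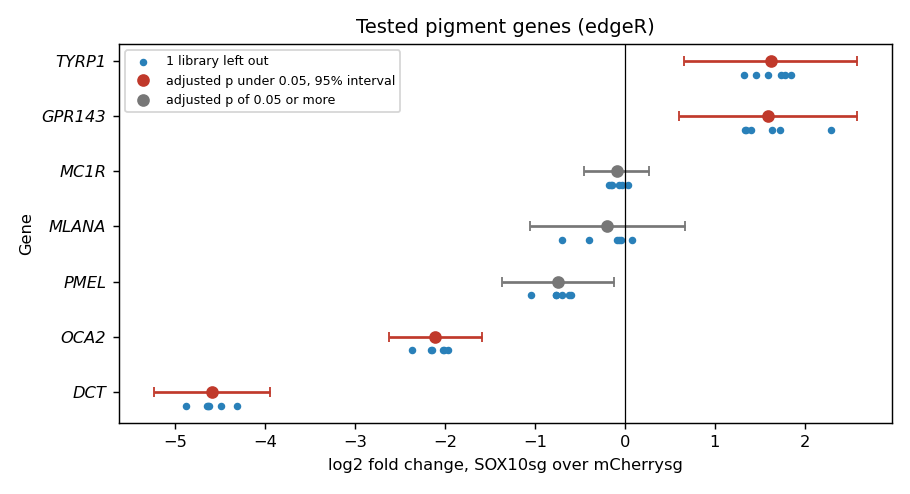
Log2 fold change (SOX10sg over mCherrysg) of the 7 tested pigment genes with 95% intervals derived from the F statistic of the edgeR test (red: adjusted p under 0.05), and in blue the 6 values with 1 library left out. DCT at -4.59 and OCA2 at -2.11 lie left of 0 throughout, TYRP1 at 1.62 and GPR143 at 1.59 right of it, and the blue points of MLANA and MC1R fall on both sides.

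In all, 7 of the 10 genes were tested: 2 were lower, 2 were higher and 3 did not pass. The share of 57.1% cannot be read against the 28.0% of all genes, because DCT reached the filter only through its mCherrysg libraries and TYRP1 only through its SOX10sg libraries, and GPR143 was over it in all SOX10sg libraries but in 1 mCherrysg library. Among the 4 genes over the filter in every library, which were PMEL, MLANA, OCA2 and MC1R, OCA2 alone was called. With the same limit, the median log2 fold change of the 7 was -0.19, beside -0.02 for all genes tested. The groups did not overlap for 5 of the 7 genes, a count that cannot be read against the 41.6% of all genes tested for the same reason; among the 4 genes over the filter in every library they did not overlap for PMEL and OCA2. For single genes the exact two-sided permutation test of log2(CPM + 0.1) gave p = 0.1 for DCT, OCA2, TYRP1, GPR143, PMEL and SLC45A2, the smallest value that 3 against 3 libraries allow.

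Summed over the 10 genes, counts were 343, 339 and 290 in SOX10sg replicates 1, 2 and 3, and 530, 537 and 481 in mCherrysg replicates 1, 2 and 3. The sum averaged 4.26 ± 0.537 CPM in SOX10sg and 7.09 ± 0.372 CPM in mCherrysg libraries (SD, n = 3 each). In both groups the whole set thus amounted to fewer counts than MITF alone, which had at least 9935 counts in each SOX10sg library and at least 3987 counts in each mCherrysg library.

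Levels between genes can be compared per kilobase of exon (RPKM). In SOX10sg libraries MC1R stood first at 0.354 ± 0.0543 RPKM, followed by MLANA at 0.250 ± 0.134 and GPR143 at 0.194 ± 0.043 RPKM. These neighbours overlapped between libraries, whereas GPR143 was above OCA2 (0.111 ± 0.0316 RPKM) in all libraries of the group. In mCherrysg libraries OCA2 stood first at 0.481 ± 0.0498 RPKM, followed by MC1R at 0.377 ± 0.0378, MLANA at 0.283 ± 0.0744, DCT at 0.215 ± 0.0232 and PMEL at 0.160 ± 0.00944 RPKM. Only MLANA and DCT among these neighbours overlapped. With the longest transcript as the length MC1R (0.577 RPKM) stood above OCA2 (0.498 RPKM) in mCherrysg libraries, so that the first place there depends on the length taken.

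**Figure D4:**
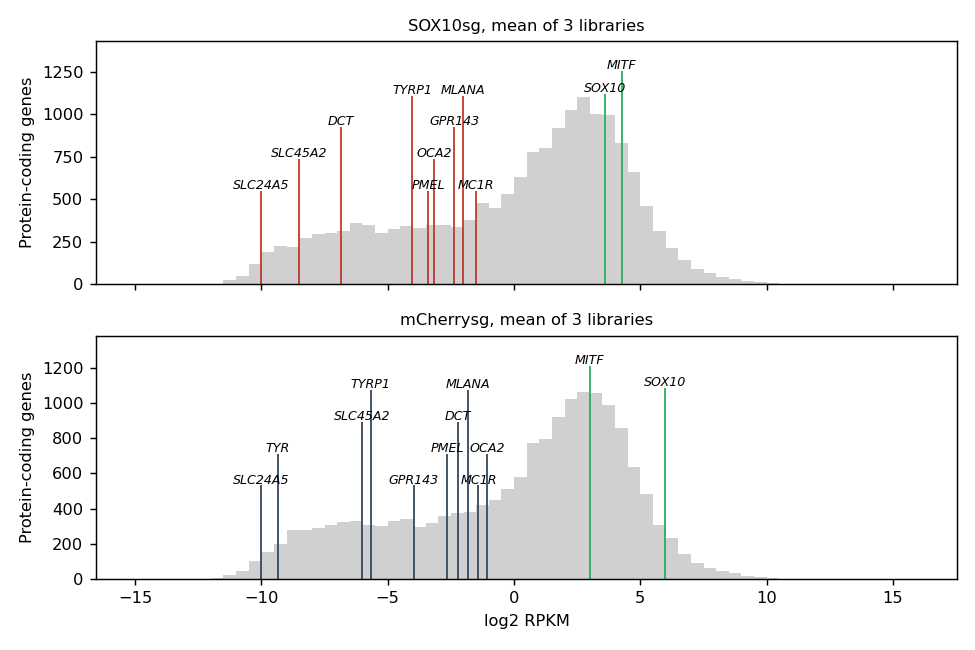
Number of protein-coding genes by log2 RPKM (bins of 0.5, mean of 3 libraries; genes at 0 are left out, 2907 in SOX10sg and 3081 in mCherrysg), with the pigment genes as red or dark lines and MITF and SOX10 as green lines. In SOX10sg the highest pigment gene is MC1R and in mCherrysg OCA2, and all of them lie left of the main peak.

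Even the highest of these values is low. MC1R exceeded 41.9% of the 19922 protein-coding genes in SOX10sg and OCA2 35.9%, against 42.6% for MC1R and 44.1% for OCA2 in mCherrysg libraries. DCT exceeded 23.6% of protein-coding genes in SOX10sg and 39.5% in mCherrysg libraries. The median protein-coding gene stood at 1.11 RPKM in both groups, above every pigment gene. MITF exceeded 88.0% of protein-coding genes in SOX10sg and 75.1% in mCherrysg libraries, and SOX10 81.8% in SOX10sg and 96.8% in mCherrysg libraries. In bulk RNA, a low mean over all cells and a high level in a few cells cannot be told apart, and neither can fewer expressing cells and less RNA per cell.

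The transcription factors and receptors that act on pigment genes changed in both directions. Of 14 tested regulators 6 rose and 6 fell (median log2 fold change -0.02), where 14.0% of all genes tested rose and 14.0% fell. This list and those that follow were chosen with earlier results of these data known. Their shares therefore cannot be read as a result against those of all genes. SOX9, a relative of SOX10, averaged 69.7 ± 7.02 CPM in SOX10sg and 2.00 ± 0.228 CPM in mCherrysg libraries (log2 fold change 5.12, edgeR adjusted p = 4.50e-08), and MITF rose with a log2 fold change of 1.27 (adjusted p = 9.86e-07). MITF counts are summed over the 18 annotated transcripts, and its melanocyte form was not measured apart from the others. LEF1, a partner of beta-catenin, fell to 12.7 ± 0.874 CPM in SOX10sg, against 43.4 ± 2.46 CPM in mCherrysg libraries, and TFAP2B, an AP-2 factor, to 15.1 ± 1.45 CPM in SOX10sg, against 70.9 ± 7.04 CPM in mCherrysg libraries. Named after its values were seen, KIT, the receptor on which melanocytes depend for survival, had 56, 91 and 64 counts in SOX10sg replicates 1, 2 and 3, and 2, 0 and 0 counts in mCherrysg replicates 1, 2 and 3. With these counts KIT reached the filter on low counts only through its SOX10sg libraries.

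Genes that act at MC1R or in cyclic AMP signalling were counted as a list. Of 17 tested, 8 fell and 3 rose (median log2 fold change -0.28), where 14.0% of all genes tested fell and 14.0% rose. PDE3A, which degrades cyclic AMP, averaged 2.51 ± 0.423 CPM in SOX10sg and 30.7 ± 2.99 CPM in mCherrysg libraries (log2 fold change -3.61, edgeR adjusted p = 3.40e-07). PRKAR2B, a regulatory subunit of protein kinase A, fell to 25.8 ± 1.51 CPM in SOX10sg, against 58.3 ± 3.41 CPM in mCherrysg libraries, whereas the catalytic subunit PRKACB rose to 89.2 ± 1.99 CPM in SOX10sg, against 60.4 ± 3.64 CPM in mCherrysg libraries. PDE4D, a further phosphodiesterase, averaged 71.5 ± 2.98 CPM in SOX10sg and 58.0 ± 1.54 CPM in mCherrysg libraries (log2 fold change 0.30, adjusted p = 0.00601). GNAS, which encodes the stimulatory G protein that MC1R couples to and was named after its values were seen, averaged 710 ± 37.9 CPM in SOX10sg and 1458 ± 81.3 CPM in mCherrysg libraries (log2 fold change -1.04, edgeR adjusted p = 9.13e-06). The hormone precursor gene POMC had 0 counts in all 6 libraries.

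The machinery that builds melanosomes is shared with other lysosome-related organelles, and 28 of its 29 tested genes had at least 1 CPM in 3 or more libraries. Of these 29 genes 3 rose, 4 fell and 22 did not pass, where 14.0% of all genes tested rose and 14.0% fell. Their median log2 fold change was -0.02, and 1 of 30 listed symbols was not matched. Genes of this list were grouped by complex after their values were seen. None of the 8 subunits of BLOC-1, a complex that sorts pigment proteins, passed the test, with log2 fold changes between -0.19 and 0.14. None of the 2 of BLOC-3 passed, and of the 3 subunits of BLOC-2, 1 fell. AP3S1, a subunit of the AP-3 adaptor, rose to 354 ± 44.4 CPM in SOX10sg, against 176 ± 24.0 CPM in mCherrysg libraries, and the Chediak-Higashi gene LYST to 64.1 ± 8.01 CPM in SOX10sg, against 42.4 ± 5.38 CPM in mCherrysg libraries. AP3S1 shares 11.8% of its exonic bases with ATG12 on the opposite strand. BACE2, the protease that cuts PMEL, fell to 75.2 ± 3.39 CPM in SOX10sg, against 127 ± 9.03 CPM in mCherrysg libraries (log2 fold change -0.76, edgeR adjusted p = 7.75e-05). RAB38, a small GTPase that brings TYRP1 and TYR to the melanosome, fell to 11.8 ± 1.69 CPM in SOX10sg, against 23.2 ± 2.75 CPM in mCherrysg libraries.

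Among 13 tested genes of melanosome transport 4 rose and 2 fell (median 0.07), beside 14.0% of all genes tested in each direction. SYTL2, a binding partner of RAB27A, averaged 131 ± 3.43 CPM in SOX10sg and 32.5 ± 0.834 CPM in mCherrysg libraries, and RAB27B, a GTPase of secretory granules, 102 ± 6.68 CPM in SOX10sg, against 21.1 ± 1.14 CPM in mCherrysg libraries. Of the genes that fell, the actin bundler FSCN1 had 147 ± 4.30 CPM in SOX10sg and 189 ± 4.96 CPM in mCherrysg libraries, and RAB11B, a recycling GTPase, 30.1 ± 0.884 CPM in SOX10sg, against 35.6 ± 0.796 CPM in mCherrysg libraries. The edgeR call of RAB11B (log2 fold change -0.24, adjusted p = 0.0169) was lost without SOX10sg replicate 2 (0.0736) or 3 (0.0619), without mCherrysg replicate 1 (0.0666) or 2 (0.0824) and with scaling by total counts (0.057), and 12.4% of its exonic bases are shared with RAB11B-AS1 on the opposite strand.

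For ion, copper and thiol transport, in the granule or elsewhere in the cell, 2 of 17 tested genes rose and 5 fell (median -0.20), beside 14.0% of all genes in each direction. SLC7A11, which imports the cystine used for red pheomelanin, fell to 43.8 ± 1.32 CPM in SOX10sg, against 121 ± 1.55 CPM in mCherrysg libraries (log2 fold change -1.46, edgeR adjusted p = 4.45e-07). MFSD12, which carries cysteine into the melanosome, fell to 34.1 ± 2.28 CPM in SOX10sg, against 82.4 ± 3.34 CPM in mCherrysg libraries, with 23.9% of its exonic bases shared with genes on the opposite strand. ATP6V1A, a subunit of the proton pump, rose to 256 ± 4.57 CPM in SOX10sg, against 210.3 ± 3.30 CPM in mCherrysg libraries, and TPCN1, a cation channel of endosomes and lysosomes, to 26.3 ± 1.93 CPM in SOX10sg, against 18.5 ± 2.01 CPM in mCherrysg libraries.

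The list of other differentiation markers also holds genes that are not particular to the lineage. It was mixed as well, with 6 of 18 tested genes higher and 4 lower (median 0.21). Over all genes tested the shares were 14.0% higher and 14.0% lower. SLC16A6, a monocarboxylate transporter, averaged 19.6 ± 1.25 CPM in SOX10sg and 2.94 ± 0.159 CPM in mCherrysg libraries, and the stress cytokine GDF15 16.8 ± 0.755 CPM in SOX10sg, against 3.11 ± 0.260 CPM in mCherrysg libraries. S100B, a calcium-binding protein, fell by 4.68 on the log2 scale (edgeR adjusted p = 1.17e-07), and its relative S100A1 to 0.762 ± 0.0271 CPM in SOX10sg, against 3.14 ± 0.207 CPM in mCherrysg libraries. S100A1 shares 18.3% of its exonic bases with genes on the opposite strand.

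**Figure D5:**
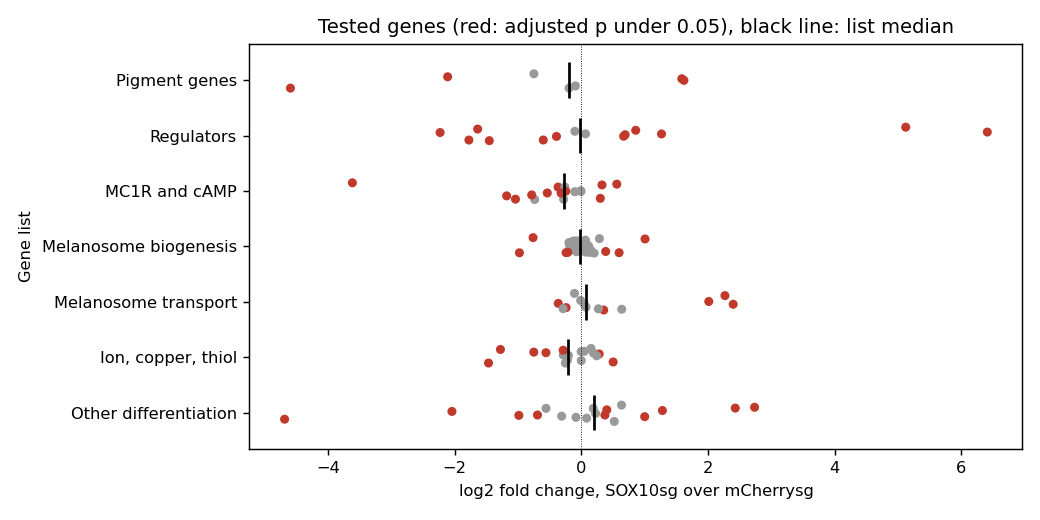
Log2 fold change (x axis, SOX10sg over mCherrysg) of each tested gene of the 10 pigment genes and of 6 lists around them, with list medians as black lines and genes with an adjusted p under 0.05 in red. Medians lie between -0.28 (MC1R and cyclic AMP) and 0.21 (other differentiation markers), and every list has genes on both sides of 0.

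Genes listed as markers of other cell types were counted in the same libraries, where 14.0% of all genes tested rose and 14.0% fell. Of 14 tested fibroblast markers 8 rose and 2 fell, and their sum ranged from 159.1 to 165.4 CPM in SOX10sg and from 126.5 to 130.5 CPM in mCherrysg libraries. Of 9 tested genes of the keratinocyte list 5 rose and 1 fell, with a sum of 313.4 to 328.7 CPM in SOX10sg and 232.9 to 246.8 CPM in mCherrysg libraries. That list also holds general epithelial genes, so its sum does not mark keratinocytes alone. KRT1 was at 0 in all libraries. The endothelial list (2 of 4 tested higher, 1 lower) summed to at most 4.55 CPM in SOX10sg and 8.91 CPM in mCherrysg libraries with ERG at 0, and the immune list (1 of 3 higher, 1 lower) to at most 2.96 CPM in SOX10sg and 14.5 CPM in mCherrysg libraries. Their part in the values of the pigment genes was not tested.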

How the data were processed

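RNA of A375 cells was sequenced in 3 SOX10sg and 3 mCherrysg libraries, made with a stranded kit for polyadenylated RNA per the labels' protocols. HISAT2, HTSeq and hg38 are named in the submitters' processing notes; the sources used here give no versions, annotation release or strand setting, so reads of genes that overlap on opposite strands may not be separated. The deposited values are the authors' raw counts for each gene, with a column per library. Symbols, positions and exonic lengths came from GENCODE release 29 (GRCh38) and a table of current symbols.

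The test was that of edgeR 4.0.16, run in R 4.3.3 (filterByExpr, TMM, quasi-likelihood, group as the only term). CPM uses TMM-scaled totals, and RPKM divides it by the merged exon length. The procedure was run on simulated counts with the same dispersion for every gene and no replicate effect. That run does not cover the scatter of these libraries. The members and lists were chosen with earlier results of these data known. Besides the members, SOX10 and MITF, the text names for each list the 2 genes of smallest p in each direction. Alternatives were DESeq2 1.42.0, limma 3.58.1 (voom), DESeq2 size factors, total counts, no filter, at least 1 CPM in 3 libraries, a replicate block, leaving out each library, and other lengths and pseudocounts.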

Additional observations from a re-analysis of the deposited data

How the results depend on the processing

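DCT and OCA2 stayed lower and past the threshold in all 13 alternative fits. The number of pigment genes called lower was 2 or 3 over these fits (2 to 3 with 1 library left out). The number called higher fell to 0 with at least 1 CPM required in 3 libraries, a filter that removes TYRP1 and GPR143, and ranged from 0 to 2 with 1 library left out. With 1 library left out, MLANA ranged from -0.697 to 0.0742 and MC1R from -0.174 to 0.0309 in log2 fold change, both above 0 without SOX10sg replicate 3. Over all genes the count past the threshold ranged from 3797 to 5893 with 1 library left out, against 5396 with all 6, of which 1986 to 2935 were higher and 1794 to 2958 lower; 1794 lower genes were found without SOX10sg replicate 2.

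Deviations of same-numbered libraries from their group means correlated at 0.375, 0.000414 and 0.398 for replicates 1, 2 and 3. Between SOX10sg and mCherrysg libraries of different numbers the correlation ran from -0.406 to 0.0783. Nothing in the labels says that the numbers mark pairs, so the main test has no replicate term. Whether same-numbered libraries share an effect was not tested, and these correlations do not exclude it. With the replicate block 9813 genes passed, 4637 higher and 5176 lower, and PMEL passed (log2 fold change -0.77, adjusted p = 0.0316). Of 78 medians of the lists around the pigment genes, 11 moved by over 0.1 or across 0; those of the regulators (-0.244 to 0.0245) and of the biogenesis genes (-0.023 to 0.0227) lay on both sides of 0. The use of exonic bases not shared with another gene as length was chosen after seeing the data and gave MC1R 0.637 RPKM in SOX10sg and 0.679 RPKM in mCherrysg libraries. With 3 libraries a group and counts this low, small changes could not be resolved.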
